A study of Mus musculus with 6 samples.

Results

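The DNA replication machinery was followed here as 49 genes whose products license origins, unwind and copy DNA, supply nucleotides and rebuild chromatin behind the fork. The members were listed by symbol, and each was read from the probe set that was highest on average. All 49 were among the 19938 genes with a probe set of their own, and all 49 were among the 11147 genes tested. Expression was measured on 6 Affymetrix arrays of CD8+ T cells from the spleen of female C57BL/6 mice carrying the Pmel-1 transgene, a T cell receptor that recognises the melanoma antigen gp100. There were 3 groups of 2 arrays. The naive group was collected fresh and sorted for CD8 and Thy1.1. The IL-2 primed group received gp100 for 4 days and IL-2 for 6 days, and the IL-12 primed group received gp100 for 4 days and IL-12 for 6 days. The labels do not say how those periods overlapped, and they name no sort of the primed cells. They also do not give the age of the mice, or whether the replicate arrays of a condition stand for different mice, pools or cultures, so every p-value measures the spread between these arrays, which may be technical. Its stated aim was to find genes and pathways that T cells need to act on tumours in vivo.

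Replication begins at origins, where the origin recognition complex, Cdc6 and Cdt1 load the MCM ring, the core of the replicative helicase. Entry into S phase brings the kinase Cdc7 with its activator Dbf4, and then Cdc45 and the GINS complex, which turn the loaded ring into a moving helicase; primase, the replicative polymerases, the sliding clamp and its loader follow. Resting T cells keep many of these genes at low levels, and stimulation through the antigen receptor together with cytokine brings the cells into cycle, with many of the genes driven by E2F factors at the entry into S phase.

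Promoters are shown because an E2F site is the sequence feature best known to join these genes. They are RefSeq sequences of assembly GRCm38.p6, 300 bases long, running 5′ to 3′ on the strand of the gene from 250 bases before to 50 bases after its start; 41 of the 49 members had an entry, 9 of them with more than 1 promoter, and the promoter listed first was used. Capitals mark any of the letters TTTCCCGC, TTTGGCGC, TTTCGCGC or TTTGCCGC on either strand, the 4 E2F sites searched. Orc1 and Pole2 had the clearest differences between IL-12 and IL-2 primed cells, Mcm6 carried the most matches of any promoter used, and Dbf4 had a difference below 0 between the primed groups and no match. The intervals are chr4:108579204-108579503 on the plus strand for Orc1, chr12:69228141-69228440 on the minus strand for Pole2, chr1:128359656-128359955 on the minus strand for Mcm6 and chr5:8422667-8422966 on the minus strand for Dbf4.
Orc1: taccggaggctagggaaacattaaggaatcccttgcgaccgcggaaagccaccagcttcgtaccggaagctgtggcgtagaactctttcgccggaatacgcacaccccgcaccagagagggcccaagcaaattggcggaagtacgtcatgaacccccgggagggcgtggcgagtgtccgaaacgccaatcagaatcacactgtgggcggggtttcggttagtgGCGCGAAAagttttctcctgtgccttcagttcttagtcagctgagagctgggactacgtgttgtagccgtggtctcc
Pole2: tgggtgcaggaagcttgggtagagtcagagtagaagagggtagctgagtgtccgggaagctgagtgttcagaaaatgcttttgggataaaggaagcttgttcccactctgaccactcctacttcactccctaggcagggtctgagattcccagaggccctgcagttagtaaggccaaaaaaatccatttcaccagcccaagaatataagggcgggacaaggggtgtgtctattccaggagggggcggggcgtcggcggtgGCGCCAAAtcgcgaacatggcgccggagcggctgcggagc
Mcm6: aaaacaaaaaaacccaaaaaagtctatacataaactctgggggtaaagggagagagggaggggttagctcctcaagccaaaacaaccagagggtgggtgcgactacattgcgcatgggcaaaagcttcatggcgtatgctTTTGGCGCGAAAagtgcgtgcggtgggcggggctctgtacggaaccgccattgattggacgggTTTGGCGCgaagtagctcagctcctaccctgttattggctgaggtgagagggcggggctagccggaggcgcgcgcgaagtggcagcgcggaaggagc
Dbf4: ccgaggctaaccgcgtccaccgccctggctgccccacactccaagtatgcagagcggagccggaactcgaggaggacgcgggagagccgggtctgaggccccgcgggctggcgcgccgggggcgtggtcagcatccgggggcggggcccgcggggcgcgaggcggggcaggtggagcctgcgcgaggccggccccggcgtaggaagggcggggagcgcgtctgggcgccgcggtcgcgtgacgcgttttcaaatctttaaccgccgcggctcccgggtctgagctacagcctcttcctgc
The Orc1 match begins 27 bases before the start and the Pole2 match 11 bases after it. Mcm6 had 3 matches, beginning 110, 106 and 47 bases before the start, and the first pair overlap.

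An E2F match was found in the first promoter of 14 of 41 members (34.1%), against 388 of 8950 tested genes with a promoter (4.34%) and 2.32% of all 27025 genes in the table. The 14 were Orc1, Orc3, Cdc6, Cdt1, Mcm3, Mcm5, Mcm6, Mcm7, Gins3, Rfc3, Pola1, Pold1, Pold3 and Pole2. Among a list of 25 mitosis genes, 22 had a promoter and 1 of those (4.55%) held a match. The CCAAT box, searched as CCAAT on either strand, stood in 61.0% of the members' promoters, 38.6% of those of tested genes and 81.8% of those of the mitosis list. The CHR element, searched as TTTGAA on either strand, stood in 17.1% of members, 11.8% of tested genes and 77.3% of the mitosis list. Of the members higher in IL-12 than in IL-2 primed cells, 7 of 15 with a promoter held an E2F match (46.7%), and of the others 7 of 26 did (26.9%); counting any listed promoter, the shares were 46.7% and 38.5% (10 of 26). Orc3 held a match 41 bases before its start and differed little between groups, so the letters and the size of a difference did not go together in every member. A match is a description of letters and not a measured binding site.

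Values are log2 RMA values as deposited, and levels were compared only within a gene. Array medians over all probe sets ran from 6.78 to 6.95. The labelled cell type was checked on its markers: Cd8a read 12.61 and 12.66 in naive, 12.26 and 12.36 in IL-2 primed and 12.17 and 12.12 in IL-12 primed cells. Background was read from Y-linked genes, since the animals were female: 6 of 7 measured lay between 2.88 and 5.0 on every array, while the probe set for Sry read between 7.53 and 8.13. The lowest naive value of a member was 5.17. The members moved together between replicate arrays: 40 of 49 were higher on naive replicate 2 than on replicate 1 (median gap 0.23), 4 of 49 in the IL-2 primed group (-0.12) and 45 of 49 in the IL-12 primed group (0.13), against 60.9%, 51.4% and 54.6% of all genes tested. The members are therefore not independent of each other. In such bulk samples a larger share of cycling cells and more RNA per cycling cell cannot be told apart.

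**Figure D1:**
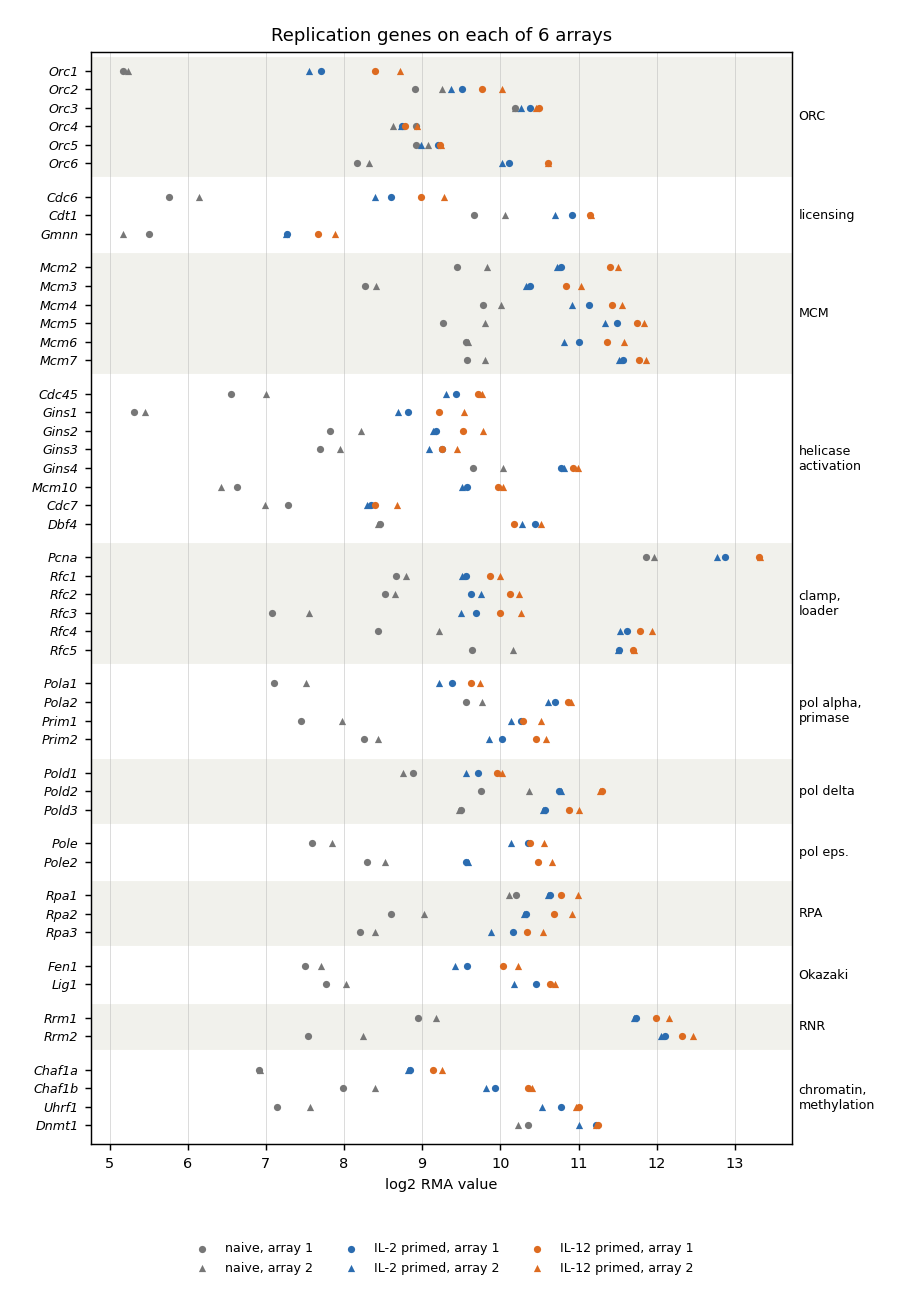
Log2 RMA value of members on each of the 6 arrays, by complex; each point is 1 array, coloured by group. In 45 of the 49 genes both naive points lie below both IL-2 points and those below both IL-12 points.

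Priming with antigen and IL-2 went with higher levels of nearly the whole replication machinery. Of 49 members, 45 were higher in IL-2 primed than in naive cells and 0 were lower; over all tested genes 25.8% were higher and 19.9% lower (limma, adjusted p under 0.05). The median difference of the members was 1.61 (3.06-fold), against 0.01 for all genes. The largest rise was that of Rrm2, the small subunit of ribonucleotide reductase, at 18.3-fold. Uhrf1, which brings the maintenance methyltransferase to new DNA, rose 9.82-fold, and Rfc4, a clamp loader subunit, 6.70-fold. The 4 members not called were all subunits of the origin recognition complex, Orc2, Orc3, Orc4 and Orc5. The difference was above 0 in 48 of 49 members and in 51.5% of all genes. In 47 of 49 members both IL-2 arrays lay above both naive arrays, against 38.7% of all genes. The 5 members with both naive arrays at or below the filter level of 6.83, Orc1, Cdc6, Gmnn, Gins1 and Mcm10, entered the test only through the primed groups. Their naive readings of 5.17 to 6.63 were not shown to be above background, so their folds over naive cells carry the words 'or more'. Those folds are point estimates of the fit, and the words cover background only, not the spread between arrays. Among the other 44, 40 were higher and the median was 1.43. Centring each array on the median of all probe sets gave a median of 1.71 and changed the split of all genes from 2873 higher and 2222 lower to 3274 and 1574, and centring on the genes tested gave 1.51 and a split of 2439 and 3006.

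Nearly the whole machinery was also higher in IL-12 primed than in naive cells. Of 49 members, 47 were higher and 0 lower, against 31.2% and 26.7% of all genes, with a median difference of 2.14 (4.40-fold) against 0.04. Rrm2 rose 22.7-fold, Uhrf1 12.4-fold and Rfc4 8.21-fold. Of the genes low in naive cells, Gins1 was higher by an estimated 15.9-fold or more. The replication initiator Mcm10 was higher by an estimated 11.1-fold or more and Orc1 by 10.2-fold or more. Their 95% intervals began at log2 differences of 3.69, 3.22 and 3.05. Orc4 and Orc5 were not called. Both IL-12 arrays lay above both naive arrays in 48 of 49 members (42.5% of all genes) and below them in 0 (36.7% of all genes). The difference was above 0 in 49 of 49 members and in 53.3% of all genes. Without the 5 members low in naive cells, 42 of 44 were higher, with a median of 1.89. This comparison and the former share the naive arrays, so their values are given side by side and not as independent evidence. The median of all probe sets differed by -0.117 between IL-12 primed and naive arrays as deposited; centring on it removed that difference, raised the members' median to 2.25 and changed the split of all genes from 3482 higher and 2972 lower to 4014 and 2295, and centring on the genes tested gave 3134 and 3415.

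**Figure D2:**
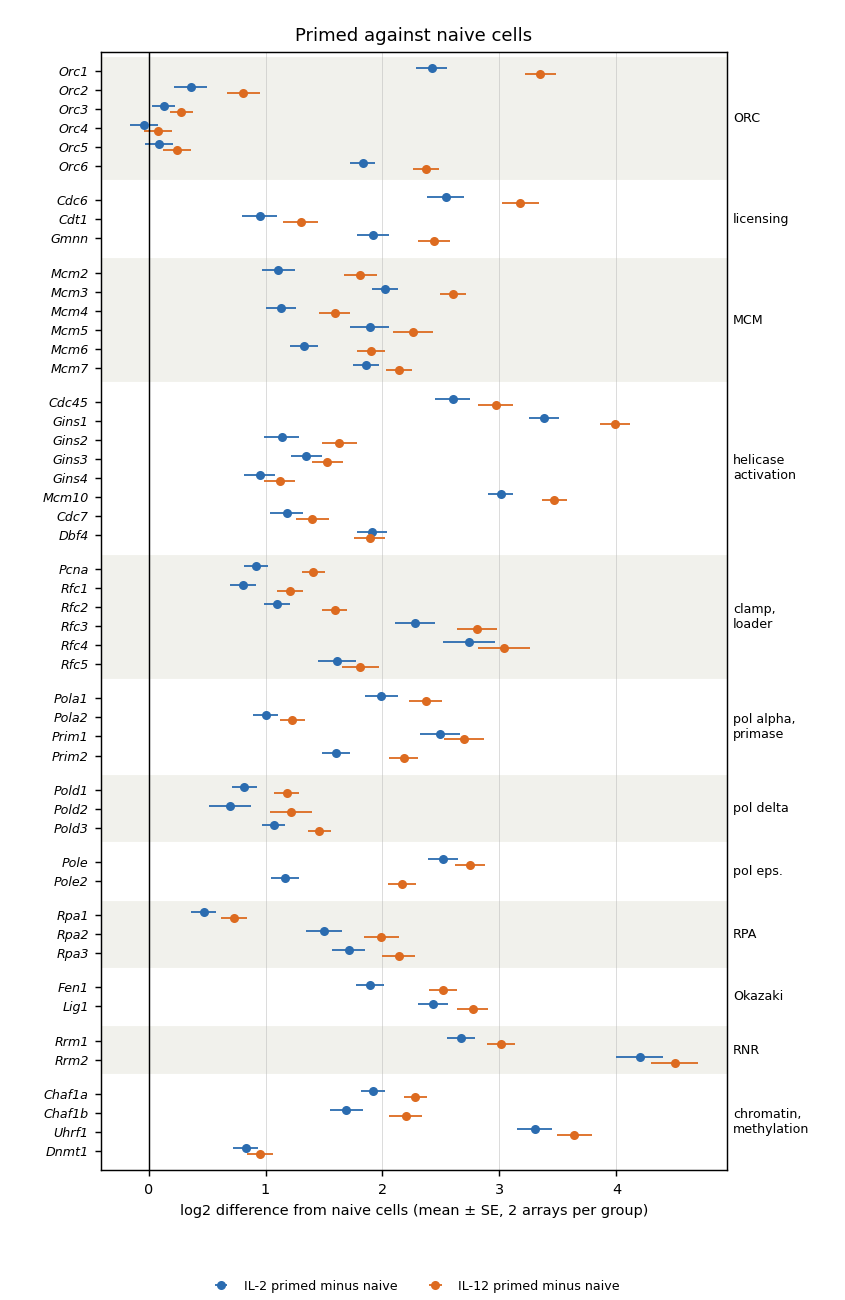
Log2 difference from naive cells of each member in IL-2 primed and in IL-12 primed cells, with bars of ± 1 SE of the limma fit, by complex; both share the naive arrays. Rrm2 lies farthest to the right, at 4.20 and 4.50, and Orc4 lies at -0.04 and 0.08; the points of Orc1, Cdc6, Gmnn, Gins1 and Mcm10 rest on naive readings not shown to be above background.

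Set against IL-2 priming, IL-12 priming went with slightly higher levels of the replication genes. Of 49 members, 21 were higher and 0 lower (32 and 0 at an unadjusted p under 0.05), against 9.82% and 11.0% of all genes tested (limma, adjusted p under 0.05). The median difference was 0.39 (1.31-fold), against 0.02 for all genes, and the differences ran from -0.02 for Dbf4 to 1.0 for Pole2. Without the 5 members low in naive cells, 16 of 44 were higher and 0 lower, with a median of 0.37. The difference was above 0 in 48 of 49 members and in 52.6% of all genes. In 47 of 49 members both IL-12 arrays lay above both IL-2 arrays, against 36.1% of all genes; the exceptions were Gins3 and Dbf4. The ordering naive below IL-2 below IL-12 without overlap held for 45 of 49 members and for 17.0% of all genes.

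The count of 21 rested on small differences measured on 2 arrays a group, and single arrays moved it. Without IL-2 replicate 1 it was 5, without IL-2 replicate 2 it was 2, without IL-12 replicate 1 it was 9 and without IL-12 replicate 2 it was 2, while the count over all genes fell from 1095 to 462, 338, 613 and 481. It was 35 on leaving out naive replicate 1 and 35 on leaving out naive replicate 2. Orc1 and Pole2 were called in all 6 of these fits, and Mcm6, Prim2 and Fen1 in 4. The number of members with a difference above 0 was 48 or 49 on leaving out each primed array. Leaving out either naive array gave the same fit of the primed groups alone, so those 2 fits count as 1. It could not change the differences between primed groups.

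**Figure D3:**
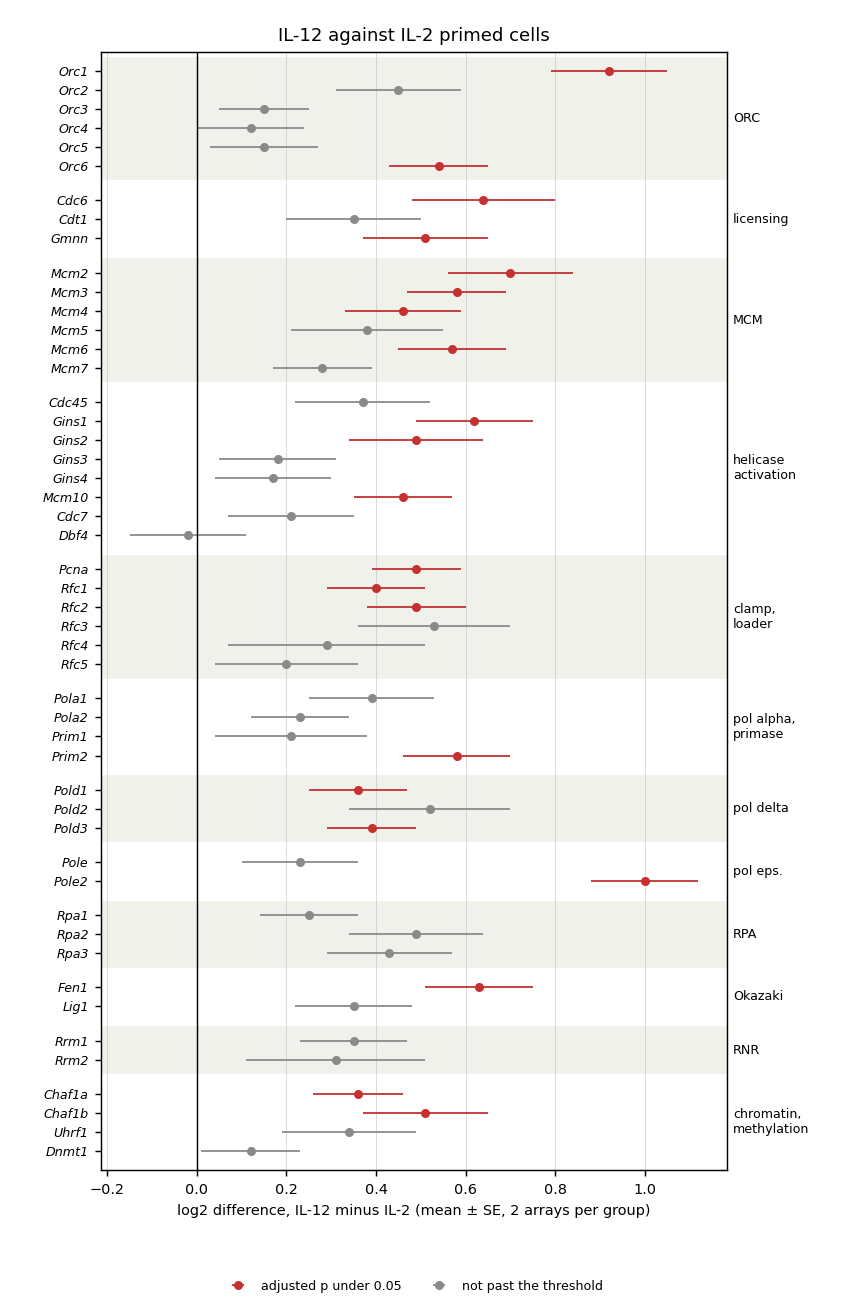
Log2 difference of IL-12 from IL-2 primed cells for each of the 49 members, with bars of ± 1 SE of the limma fit, by complex. Red points passed an adjusted p under 0.05 and grey points did not; Pole2 and Orc1 lie farthest to the right, at 1.0 and 0.92, and Dbf4 lies farthest to the left, at -0.02.

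The origin recognition complex marks origins and recruits the loading factors. It was the only complex with members not called against naive cells. Its subunits Orc1 and Orc6 rose in all 3 comparisons, while Orc4 and Orc5 were called in none. Orc1, the subunit known to vary with the cell cycle (probe set 10506822), read 5.17 and 5.24 in naive, 7.71 and 7.55 in IL-2 primed and 8.40 and 8.71 in IL-12 primed cells. The groups did not overlap, and IL-12 exceeded IL-2 primed cells by 0.92 ± 0.13 (SE of the fit, n = 2 a group), 1.90-fold (limma adjusted p = 0.00173). Against naive cells, whose readings lay near background, Orc1 was higher by an estimated 5.36-fold or more with IL-2. Orc6, the smallest subunit, rose 3.55-fold with IL-2, 5.18-fold with IL-12 and was 1.46-fold higher in IL-12 than in IL-2 primed cells.

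Orc4, an AAA+ subunit of the complex (probe set 10482467), read 8.92 and 8.63 in naive, 8.74 and 8.73 in IL-2 primed and 8.78 and 8.93 in IL-12 primed cells. Both primed groups overlapped the naive group, and the IL-2 arrays fell between the naive arrays. The IL-12 arrays lay just above the IL-2 arrays. Its difference of IL-2 from naive cells was -0.04, with a 95% interval of -0.32 to 0.24 and a limma adjusted p of 0.812. That sign turned under centring on all probe sets (0.06), so Orc4 has no settled direction. Orc5 differed by 0.09 in IL-2 and 0.24 in IL-12 primed cells, with limma adjusted p-values of 0.544 and 0.108, and centring on the genes tested turned the former to -0.01. Orc2 differed by 0.36 in IL-2 primed cells (limma adjusted p = 0.071) and rose by 0.81 in IL-12 primed cells (limma adjusted p = 0.00128). Orc3 differed by 0.13 in IL-2 primed cells; its rise of 0.28 in IL-12 primed cells had a limma adjusted p of 0.041 and was called in 5 of 17 alternatives, whose adjusted p ran from 0.0156 to 0.168.

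All 3 licensing factors rose on priming. Cdc6, the ATPase that loads the helicase with Cdt1, read 5.76 and 6.15 in naive, 8.60 and 8.40 in IL-2 primed and 8.99 and 9.28 in IL-12 primed cells. No groups overlapped. Cdc6 was higher than in naive cells by an estimated 5.83-fold or more with IL-2 and 9.08-fold or more with IL-12. The difference of IL-12 from IL-2 primed cells was 0.64 ± 0.16 (limma adjusted p = 0.023). Gmnn, which encodes geminin, the inhibitor of Cdt1, read 5.51 and 5.17 in naive, 7.27 and 7.26 in IL-2 primed and 7.67 and 7.88 in IL-12 primed cells. Gmnn was higher with IL-2 than in naive cells by an estimated 3.80-fold or more. It was a further 1.43-fold higher with IL-12 than with IL-2 (limma adjusted p = 0.0299). Cdt1 itself read 9.66 and 10.06 in naive cells, 10.92 and 10.70 with IL-2 and 11.15 and 11.16 with IL-12. Its arrays did not overlap between primed groups, but the difference of 0.35 was not called (limma adjusted p = 0.127). The loading factors and their inhibitor therefore moved in the same direction.

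All 6 subunits of the MCM helicase were higher in both primed groups than in naive cells, by 1.11 to 2.02 with IL-2 and 1.59 to 2.60 with IL-12. Mcm2 read 9.45 and 9.83 in naive, 10.78 and 10.72 in IL-2 primed and 11.40 and 11.51 in IL-12 primed cells. Between primed groups it differed by 0.70 ± 0.14, 1.63-fold (limma adjusted p = 0.00819), the largest such difference of the ring. Mcm3 read 8.27 and 8.41 in naive, 10.38 and 10.33 in IL-2 primed and 10.84 and 11.03 in IL-12 primed cells, a difference of 0.58 ± 0.11 between primed groups (limma adjusted p = 0.00789). Mcm4 and Mcm6 were also higher with IL-12, by 0.46 and 0.57. Mcm5 and Mcm7 were not called, at 0.38 and 0.28, although their arrays did not overlap. Mcm7 read 9.57 and 9.80 in naive, 11.57 and 11.52 in IL-2 primed and 11.78 and 11.86 in IL-12 primed cells, so its main step lay between naive and primed cells (1.86 ± 0.11 with IL-2). Whether the subunits differ from each other in their step from IL-2 to IL-12 was not tested.

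All 8 factors that activate the loaded helicase were higher in both primed groups than in naive cells. Gins1, a GINS subunit, read 5.31 and 5.45 in naive, 8.82 and 8.69 in IL-2 primed and 9.22 and 9.53 in IL-12 primed cells. Gins1 was higher with IL-2 than in naive cells by an estimated 10.4-fold or more. It was 1.53-fold higher with IL-12 than with IL-2. Mcm10, which binds the MCM ring at initiation, read 6.63 and 6.43 in naive, 9.57 and 9.51 in IL-2 primed and 9.97 and 10.03 in IL-12 primed cells. Mcm10 was higher with IL-2 than in naive cells by an estimated 8.07-fold or more. It differed by 0.46 between primed groups (limma adjusted p = 0.0194). Gins2 was the other gene of this set called higher with IL-12, at 0.49. Gins3 and Gins4 rose 2.56-fold and 1.94-fold with IL-2 and differed by 0.18 and 0.17 between primed groups, and Cdc45, the helicase partner of MCM and GINS, rose 6.05-fold with IL-2 and differed by 0.37.

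Dbf4, the activating subunit of the Cdc7 kinase (probe set 10528077), was the member whose primed groups lay closest. It read 8.46 and 8.44 in naive, 10.44 and 10.28 in IL-2 primed and 10.17 and 10.52 in IL-12 primed cells. It rose 3.75-fold with IL-2 and 3.70-fold with IL-12, but the IL-12 arrays lay on either side of the IL-2 arrays. The difference between primed groups was -0.02, with a 95% interval of -0.32 to 0.29 (limma adjusted p = 0.938), and its sign turned to 0.01 with arrays centred on the genes tested. The kinase subunit Cdc7 rose 2.27-fold with IL-2 and 2.63-fold with IL-12, with 0.21 between them (limma adjusted p = 0.313).

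Pcna, the sliding clamp that tethers the polymerases, read 11.86 and 11.96 in naive, 12.88 and 12.77 in IL-2 primed and 13.31 and 13.32 in IL-12 primed cells. The steps were 0.92 ± 0.10 from naive to IL-2 (limma adjusted p = 0.00015) and 0.49 ± 0.10 from IL-2 to IL-12 (limma adjusted p = 0.0116), without overlap. Its other probe set gave 0.95 and 0.50. The clamp loader subunits Rfc1 to Rfc5 rose by 0.81 to 2.74 with IL-2. Rfc1 and Rfc2 were higher with IL-12 than with IL-2, by 0.40 and 0.49, and the others were not called. Rfc3 read 7.08 and 7.55 in naive, 9.69 and 9.50 in IL-2 primed and 10 and 10.26 in IL-12 primed cells; its 0.53 between primed groups missed the threshold with a limma adjusted p of 0.0532. Rfc5 read 9.64 and 10.16 in naive, 11.52 and 11.50 in IL-2 primed and 11.70 and 11.71 in IL-12 primed cells, a difference of 0.20 between primed groups with a 95% interval of -0.16 to 0.56. The naive arrays differed by more than the primed arrays for both loader genes.

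Polymerase alpha with primase lays down the RNA and DNA primers. Its primase subunits differed in size of response: Prim1, the catalytic subunit, read 7.45 and 7.97 in naive, 10.27 and 10.13 in IL-2 primed and 10.29 and 10.52 in IL-12 primed cells. Prim2, the large subunit, read 8.25 and 8.44 in naive, 10.02 and 9.86 in IL-2 primed and 10.46 and 10.59 in IL-12 primed cells. Prim1 rose 5.62-fold with IL-2 and differed by 0.21 between primed groups (limma adjusted p = 0.429), with the lowest IL-12 array 10.29 just above the highest IL-2 array 10.27. Prim2 rose 3.02-fold with IL-2 and was 1.5-fold higher with IL-12 than with IL-2 (limma adjusted p = 0.00961). The difference between the primase subunits was not tested. Pola1, the catalytic subunit of polymerase alpha, and Pola2 rose 3.96-fold and 2.0-fold with IL-2 and were not called between primed groups.

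Polymerase delta copies mainly the lagging strand. Pold1, its catalytic subunit, read 8.88 and 8.75 in naive, 9.71 and 9.56 in IL-2 primed and 9.96 and 10.02 in IL-12 primed cells, and Pold3 read 9.50 and 9.47, then 10.57 and 10.54, then 10.88 and 11.01 in the same order. Both were called between primed groups, at 0.36 and 0.39. Pold2 read 9.75 and 10.37 in naive, 10.75 and 10.77 in IL-2 primed and 11.30 and 11.27 in IL-12 primed cells. Its 0.52 between primed groups was larger than that of Pold1 or Pold3 but was not called (limma adjusted p = 0.0692), and its SE was 0.18, with naive arrays that lay far apart. The 3 delta subunits among the members rose by 0.70 to 1.07 with IL-2, with a median of 0.82. That median was the lowest of the complexes after that of the origin recognition complex (0.24). Pold4, a further delta subunit, stood in the list of other fork and origin factors and is named after its value was seen. It rose by 0.44 with IL-2 (limma adjusted p = 0.0483). Between primed groups Pold4 differed by -0.43 and was not called (limma adjusted p = 0.0902).

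Polymerase epsilon copies mainly the leading strand, and its subunits showed unlike patterns. Pole2, the second subunit (probe set 10400649), read 8.29 and 8.52 in naive, 9.56 and 9.58 in IL-2 primed and 10.48 and 10.66 in IL-12 primed cells. The step from IL-2 to IL-12, 1.0 ± 0.12 or 2.0-fold (limma adjusted p = 0.000734), was the largest of the 49 members and stood beside a step of 1.17 ± 0.12 from naive to IL-2. It was called in all 17 alternatives, with adjusted p-values of 5.58e-05 to 0.012. Pole, the catalytic subunit, read 7.59 and 7.85 in naive, 10.35 and 10.14 in IL-2 primed and 10.38 and 10.56 in IL-12 primed cells. It rose 5.74-fold with IL-2 and differed by 0.23 between primed groups (limma adjusted p = 0.259). Whether Pole2 and Pole differed in their steps was not tested.

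Replication protein A, which coats single-stranded DNA, had 0 of 3 members called between primed groups and 2 of 3 at an unadjusted p under 0.05. Rpa1, the large subunit, read 10.20 and 10.11 in naive, 10.64 and 10.61 in IL-2 primed and 10.77 and 10.99 in IL-12 primed cells, with the smallest rise of the set, 0.47 with IL-2. Rpa2 read 8.60 and 9.02 in naive, 10.33 and 10.30 in IL-2 primed and 10.68 and 10.92 in IL-12 primed cells. Rpa3 read 8.21 and 8.39 in naive, 10.16 and 9.88 in IL-2 primed and 10.34 and 10.55 in IL-12 primed cells. All 3 were ordered without overlap, with differences between primed groups of 0.25, 0.49 and 0.43 and limma adjusted p-values of 0.145, 0.0507 and 0.0565. A further probe set for Rpa3 gave 0.26 in place of 0.43 and 1.17 in place of 1.71 for the rise with IL-2.

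Among the enzymes that finish Okazaki fragments, Fen1, the flap endonuclease, read 7.50 and 7.70 in naive, 9.57 and 9.42 in IL-2 primed and 10.03 and 10.22 in IL-12 primed cells. It was 3.71-fold higher with IL-2 and a further 1.55-fold higher with IL-12 (0.63 ± 0.12, limma adjusted p = 0.00829). Lig1, the ligase that seals the nicks, read 7.77 and 8.02 in naive, 10.46 and 10.18 in IL-2 primed and 10.63 and 10.70 in IL-12 primed cells. It was 5.37-fold higher with IL-2, and its 0.35 between primed groups was not called (limma adjusted p = 0.0995).

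Ribonucleotide reductase makes deoxynucleotides and showed the largest rise on priming. Rrm2 (probe set 10394978) read 7.54 and 8.24 in naive, 12.11 and 12.06 in IL-2 primed and 12.33 and 12.46 in IL-12 primed cells. Its rise with IL-2 was 4.20 ± 0.20 (limma adjusted p = 6.33e-07), and its 0.31 between primed groups, with a 95% interval of -0.14 to 0.76, was not called (limma adjusted p = 0.307). Rrm1, the large subunit, read 8.94 and 9.18 in naive, 11.74 and 11.71 in IL-2 primed and 11.99 and 12.16 in IL-12 primed cells, a 6.35-fold rise with IL-2 and a further 0.35 that was not called (limma adjusted p = 0.0732). The arrays of both genes were ordered without overlap.

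Chromatin assembly factor 1 places histones on new DNA. Chaf1b read 7.99 and 8.39 in naive, 9.93 and 9.82 in IL-2 primed and 10.35 and 10.41 in IL-12 primed cells, and Chaf1a rose 3.78-fold with IL-2. Both were called higher with IL-12 than with IL-2, at 0.51 and 0.36. Uhrf1 read 7.14 and 7.56 in naive, 10.77 and 10.53 in IL-2 primed and 11.01 and 10.97 in IL-12 primed cells, so most of its change lay between naive and IL-2 primed cells (3.30 ± 0.15, limma adjusted p = 5.4e-07). Dnmt1, the maintenance methyltransferase, read 10.36 and 10.23 in naive, 11.23 and 11.01 in IL-2 primed and 11.25 and 11.23 in IL-12 primed cells. It rose 1.78-fold with IL-2 and differed by 0.12 between primed groups, with a 95% interval of -0.14 to 0.38. The IL-12 values of Dnmt1 lay at the upper IL-2 array, the lower of them at 11.229 against 11.226. Dnmt1 is counted among the 45 ordered members on that gap.

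Other fork and origin factors were also mostly higher in primed than in naive cells. Over all tested genes, 25.8% were higher and 19.9% lower with IL-2 than in naive cells, and 31.2% and 26.7% with IL-12. Between primed groups, 9.82% of all tested genes were higher and 11.0% lower with IL-12. Of 34 listed factors, 33 were tested. With IL-2, 26 were higher and 0 lower than in naive cells (median 1.53), and with IL-12, 27 were higher and 1 lower (1.73). Between primed groups, 8 were higher and 0 lower with IL-12 than with IL-2 (0.24). That 0 became 1 with array weights and with only the primed groups fitted. Those 8 became 1 without IL-2 replicate 1, 0 without IL-2 replicate 2, 1 without IL-12 replicate 2 and 5 with no filter. Ccne1, a cyclin that drives entry into S phase, read 8.81 and 8.92 in naive, 10.70 and 10.55 in IL-2 primed and 11.22 and 11.30 in IL-12 primed cells, 0.64 ± 0.11 higher with IL-12 (limma adjusted p = 0.00441). Ccne2, its relative, differed by 0.70, the polymerase epsilon subunit Pole3 by 0.64 and the histone chaperone Nasp by 0.58. The gene lower with IL-12 than in naive cells was Mcm9, at -0.34, which is named after its value was seen. With arrays centred on all probe sets or with array weights, 0 genes of this list were lower. The count was 2 with arrays centred on the genes tested and with trend and robust variance estimation. For nucleotide supply and S phase histone handling, 9 of 10 were tested, and 3 were higher and 0 lower with IL-12 than with IL-2: Hat1, a histone acetyltransferase (0.61), Dut, which hydrolyses dUTP (0.51), and Casp8ap2, needed for histone gene expression (0.39). These 3 became 1, 0 and 0 without the same 3 arrays. Slbp, the histone mRNA binding protein, differed by 0.40 and was not called.

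The mitosis genes rose on priming, and the test called none of them between the primed groups. All 24 tested were higher in IL-2 and in IL-12 primed than in naive cells, against 25.8% and 31.2% of all tested genes. Their medians were 4.07 and 4.10. Between primed groups 0 of 24 were called in either direction by limma, against 9.82% higher and 11.0% lower of all tested genes. At an unadjusted p under 0.05, 1 was higher and 0 lower. Array weights called 1 higher, and a fit of only the primed groups called 2. The median difference was 0.09, and 16 of 24 lay above 0, against 52.6% of all tested genes. Aurka, the mitotic kinase, read 6.89 and 7.31 in naive, 10.43 and 10.15 in IL-2 primed and 10.64 and 10.66 in IL-12 primed cells, a difference of 0.36 between primed groups (limma adjusted p = 0.138). Tpx2, the activator of Aurka, differed by 0.21, while the kinetochore genes Cenpf and Ndc80 differed by -0.22 and -0.21. The difference between the mitosis and replication lists was not tested, and a p that misses the threshold does not show equal levels.

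**Figure D4:**
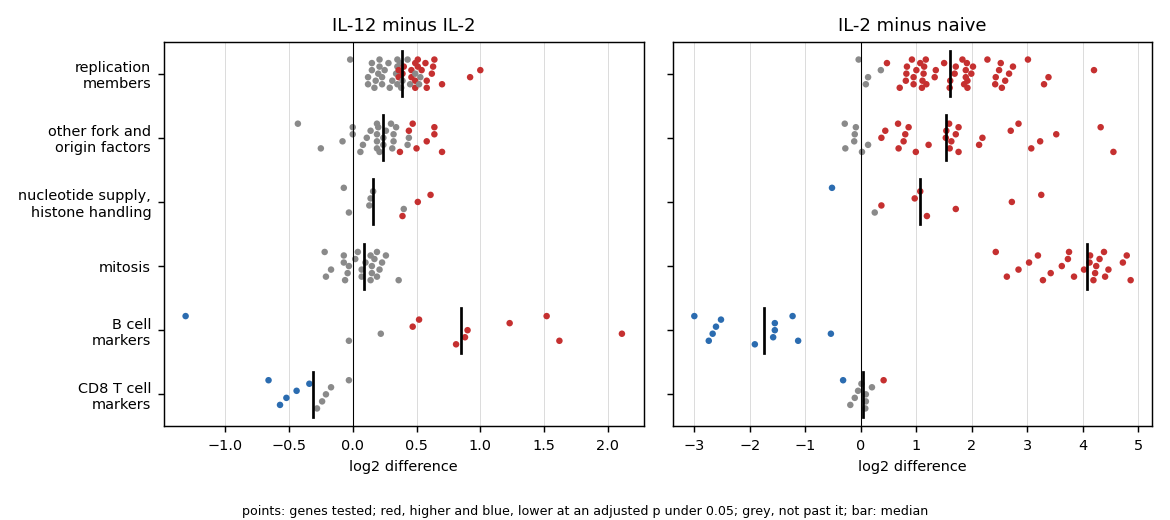
Log2 difference of IL-12 from IL-2 primed cells on the left and of IL-2 primed from naive cells on the right, each point 1 gene of a list, with the median of each list as a bar. Red points were higher, blue points lower and grey points not past an adjusted p under 0.05; on the left the replication genes have a median of 0.39, the other fork and origin factors 0.24 and the mitosis genes 0.09.

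Markers of other cells were read beside these results. Over all tested genes, 9.82% were higher and 11.0% lower with IL-12 than with IL-2. Lower than in naive cells were 19.9% of all tested genes with IL-2 and 26.7% with IL-12. Of 12 tested B cell markers, 9 were higher and 1 lower with IL-12 than with IL-2 (median 0.84), and all 12 were lower in both primed groups than in naive cells. Their summed level on the log2 scale was 12.75 and 12.87 in naive, 11.00 and 11.03 in IL-2 primed and 11.56 and 11.59 in IL-12 primed cells. Cd79a, part of the B cell receptor, read 9.68 and 9.87 in naive, 7.03 and 7.04 in IL-2 primed and 8.63 and 8.68 in IL-12 primed cells. Of 7 tested myeloid markers, 2 were higher with IL-12 than with IL-2, Itgam (0.95) and Mpeg1 (0.97), and 0 lower. These 2 became 1 on leaving out any 1 primed array other than replicate 1 of IL-2. Of the 7, 6 were lower with IL-2 than in naive cells, and the summed level ran from 11.41 to 11.59 in naive, 9.56 to 9.77 in IL-2 primed and 9.92 to 9.95 in IL-12 primed cells. Of 10 CD8 T cell markers, 5 were lower with IL-12 than with IL-2, among them Cd5 (-0.66) and Cd3d (-0.57). These 5 calls became 1 on leaving out any 1 of the 4 primed arrays. The summed CD8 T cell marker level was 15.66 and 15.69 with IL-2 against 15.34 and 15.31 with IL-12. The B cell and myeloid sums were lowest with IL-2 and highest in naive cells, and the replication genes were lowest in naive cells. Between primed groups, both sums and the replication genes were higher with IL-12 than with IL-2. The part of these markers in the difference of the replication genes between primed groups was not tested.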

How the data were processed

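Biotin-labelled total RNA went onto Affymetrix arrays, 1 per sample. Per the submitters' processing notes, the authors used RMA, and they deposited its log2 values for 35556 probe sets; version, settings and genome build are not given in the sources used here. Because RMA brings arrays to a common distribution (here within 0.233 of the mean at every rank), it can hide a change shared by most genes. Gene names came from the platform annotation, which can be old: 21789 probe sets carried 1 symbol, 1621 several, and 12146 were not listed. Genes entered the test with 2 or more of 6 arrays above the median of all values, 6.83. A limma model (version 3.58.1, R 4.3.3) gave each group its own mean over all arrays without a block; degrees of freedom were 3 residual and 5.62 prior. Tests were two-sided and adjusted by Benjamini-Hochberg over 11147 genes, threshold 0.05. Few arrays limit the precision. The model was also run on simulated data with known changes and independent noise drawn from its own variance estimates. That noise lacked the shared movement of members seen between replicate arrays.

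Members and lists were chosen with earlier results of these data known. All members could be named with differences, 31 of them with values on every array (in each complex, the largest and smallest difference of IL-12 from IL-2 primed cells and the smallest p of each comparison, plus a few fixed genes), and up to 4 genes of every other list, those with the smallest p between primed groups; Cd8a was added to check the labelled cell type. The CD4 and regulatory T cell, natural killer and erythroid marker lists had 0 genes called between primed groups by limma, of 2 tested in each, with 0, 1 and 0 at an unadjusted p under 0.05. Some alternatives, among them array weights, a replicate block and only the 2 groups compared, called 1 natural killer gene higher with IL-12. Array weights also called 1 gene of the CD4 and regulatory T cell list lower. Replicate numbers follow the titles and were not used to pair the arrays in the main fit. Alternatives changed the filter, probe set, scaling, variance model, samples fitted and block.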

Additional observations from a re-analysis of the deposited data

How the results depend on the processing

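The 2 arrays of each group limit the precision, and signal over background was read only from Y-linked genes. Over 17 alternatives, 0 members were lower in any comparison, and each median kept its sign. The 21 members higher with IL-12 than with IL-2 became 34 with array weights and 35 with only the 2 groups compared. Leaving out any 1 primed array lowered the count, and the other settings, which left out no array, gave 16 to 27. In each comparison, leaving out an array of the third group repeats the fit of the 2 groups compared. The median difference of IL-2 from naive cells, 1.61, was 1.71 with arrays centred on all probe sets, 1.51 with arrays centred on the genes tested, a setting chosen after seeing the data, and 1.49 to 1.75 on leaving out single arrays. The median difference of IL-12 from naive cells, 2.14, was 1.99 with the mean of a gene's probe sets, 2.05 after quantile normalization, 2.25 with arrays centred on all probe sets and 1.99 to 2.23 on leaving out single arrays. Signs turned for 3 genes near 0. Dbf4 between primed groups was 0.01 with arrays centred on the genes tested, 0.06 without IL-2 replicate 1 and -0.19 to 0.16 on leaving out single arrays. Orc4 in IL-2 against naive cells was 0.06 with arrays centred on all probe sets and -0.18 to 0.10 on leaving out single arrays, and in IL-12 against naive cells it was -0.06 to 0.22 on leaving out single arrays. Orc5 in IL-2 against naive cells was -0.01 with arrays centred on the genes tested and -0.02 to 0.20 on leaving out single arrays. Leaving out an array reduces the samples fitted; for other settings the cause was not tested. For IL-12 against IL-2, all genes split 1095 higher and 1226 lower, 944 and 968 with arrays centred on all probe sets, and 1364 and 1132 with arrays centred on the genes tested.

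With the replicate number as a block, 24 members were higher with IL-12 than with IL-2, 20 of them among the 21. Deviations of same-numbered arrays correlated across genes at 0.015 for naive and IL-2, -0.022 for naive and IL-12 and 0.153 for IL-2 and IL-12. The labels do not say whether same-numbered arrays share a source, and these correlations cannot settle it.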
